A study of Mus musculus with 21 samples.

Results

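Genes that mark the neural ectoderm or its derivatives were followed in cultured mouse embryonic stem cells: Pax6, Sox1, Sox11, Nes, Tubb3 and Zic1. They are the 6 genes, of 31053 gene IDs counted, whose Ensembl ID carries one of these symbols. Messenger RNA was sequenced from E14Tg2a, a male embryonic stem cell line of the 129 strain in which 1 allele of Rex1 (Zfp42) carries a destabilised green fluorescent protein. This line and its reporter allele were common to all 21 libraries, 3 replicates in each of 7 groups. The labels name a group by PO, LP or HP and by its medium (2i+LIF, CH+LIF or LIF). LIF is leukaemia inhibitory factor, which activates STAT3. CH is CHIR99021, an inhibitor of GSK3 that raises Wnt signalling through beta-catenin, and 2i usually stands for CHIR99021 together with PD0325901, an inhibitor of MEK. The groups were 2i+LIF PO, 2i+LIF LP, CH+LIF LP, LIF LP, 2i+LIF HP, CH+LIF HP and LIF HP. The labels do not spell out PO, LP and HP. The series text speaks of zero passage, 1 month and 2 months of culture, and PO, found in 2i+LIF alone, was read as zero passage, with LP and HP kept as names. One growth protocol was given for all groups: NDiff227 medium with CHIR99021 and PD0325901 for a week, then alternate giving and withdrawal of CH, PD and LIF at successive passages.

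Neural ectoderm is the embryonic layer that forms the brain and spinal cord. Embryonic stem cells lean towards this fate when signals that hold pluripotency are withdrawn, and Sox1 is among the first genes to mark the change, followed by progenitor genes such as Pax6 and Nes and by neuronal genes such as Tubb3. Pluripotent cells share some of the machinery with neural progenitors, most plainly Sox2, so low levels of single neural genes are common in stem cell cultures. ERK signalling, which PD0325901 blocks downstream of FGF, is known to favour exit from the naive state and entry into neural and other lineages.

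Gene counts per library ran from 1132126 to 3783043 with a median of 1763531, so that 3 counts, the most that a count of 0 was taken to allow, stood for 0.793 to 2.65 counts in 1000000 (CPM). Levels are given as CPM on library sizes scaled with TMM, and no molecular identifiers are described, so such limits cover counting error only. Levels of different genes were not compared with each other, since gene length was not taken out. There were 2 libraries unlike their replicates, said below to stand apart: 2i+LIF LP replicate 1, with 31.7% of gene counts from Gm42418, and 2i+LIF PO replicate 1, with 39.1% from mitochondrial genes. The 3 PO libraries carry another run number in their names than the other 18, so run and PO cannot be told apart. Levels of signalling targets went against several labels. Dusp6, a target of ERK, averaged 0.411 CPM in LIF HP, where no MEK inhibitor is named, against 3.37 CPM in 2i+LIF HP, 27.6 CPM in LIF LP and 20.5 CPM in 2i+LIF LP. The Wnt target Axin2 averaged 58.7 CPM in 2i+LIF HP but 5.53 CPM in CH+LIF HP. Other levels went with the labels. Dusp6 averaged 37.1 CPM in CH+LIF HP and 38.0 CPM in CH+LIF LP against 2.85 CPM in 2i+LIF PO. Axin2 averaged 0.763 CPM in LIF LP against 14.9 CPM in 2i+LIF LP. The groups are thus named here as labelled and no difference is assigned to an inhibitor. All 10 embryonic stem cell markers examined, Zfp42 and Nanog among them, had counts in every group, and 6 of them passed an edgeR test for any difference among the groups, as did 22.6% of all genes tested. The labels do not say that replicates were separate cultures, so p-values measure only the spread between these samples.

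The sequences just before 3 of these genes are shown because 2 of them, Sox1 and Sox11, varied most clearly between groups and the third, Nes, did not pass the test of any difference. They are GRCm38.p6 bases from RefSeq windows, cut to lie before the start of the gene in both RefSeq and GENCODE, 5′ to 3′ on the strand of the gene, with CpG dinucleotides in capitals.
Sox1, chr8:12395269-12395294, plus strand: ctgggttttcaacccaatCGttaatc
Sox11, chr12:27342719-27342968, minus strand: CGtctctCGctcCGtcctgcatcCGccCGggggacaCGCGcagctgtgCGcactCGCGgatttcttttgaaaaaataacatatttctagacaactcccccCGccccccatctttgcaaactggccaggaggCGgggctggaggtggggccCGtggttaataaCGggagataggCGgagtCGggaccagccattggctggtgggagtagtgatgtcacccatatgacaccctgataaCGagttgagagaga
Nes, chr3:87970843-87971077, plus strand: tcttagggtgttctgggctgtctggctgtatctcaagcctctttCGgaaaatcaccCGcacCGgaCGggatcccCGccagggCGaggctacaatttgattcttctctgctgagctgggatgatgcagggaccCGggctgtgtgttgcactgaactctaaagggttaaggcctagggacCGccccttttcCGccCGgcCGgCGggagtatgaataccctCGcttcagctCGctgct
All 6 genes had at least 1 RefSeq window, each of 300 bases (250 before a start and 50 after it), and Pax6 had a second. CpG counts in the first windows were 37 for Sox1, 31 for Zic1, 26 for Tubb3, 21 for Sox11, 18 for Pax6 and 18 for Nes, against a median of 7 over 32851 windows. Of all windows 94.4% held fewer than that of Sox1 and 70.3% fewer than that of Nes, so CpG content was above the median both for genes that varied and for one that was not called. Both strands were searched for letters of known motifs. The SOX letters ACAAAG occurred once, in the second window of Pax6 (chr2:105682213-105682512), and are found in 18.7% of all windows. No window of these genes held the TCF/LEF letters CTTTGAT (3.73% of all windows) or CTTTGAA (5.14%), the REST half-sites TTCAGCACC (0.37%) or GGACAGCGC (0.4%), or the STAT letters TTCNNNGAA (8.3%), which says only that these letters are not in these windows.

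Of the 6 genes, 5 had counts enough for the test across groups, and Zic1 did not. Sox1 and Sox11 were highest on average in LIF LP, Tubb3 and Pax6 were lowest in 2i+LIF PO, and the ranges of Nes overlapped between neighbouring groups. In the joint edgeR test for any difference among the 7 groups, Sox11 (adjusted p = 6.26e-05), Sox1 (adjusted p = 0.00036), Tubb3 (adjusted p = 0.031) and Pax6 (adjusted p = 0.0496) passed the threshold of 0.05. Nes did not (adjusted p = 0.559). That is 4 of 5 genes tested, where 22.6% of all 10643 tested genes passed. Pax6 had 11 and 17 counts in LIF LP replicates 1 and 3, 14 in 2i+LIF LP replicate 1 and at most 5 elsewhere. It thus met the count filter through groups where it was high, so its call is not set against that share. The calls of Sox1 and Sox11 held with any 1 library left out. Tubb3 lost its call without LIF LP replicate 2 or 3 (adjusted p of 0.0524 and 0.0523) or without CH+LIF HP replicate 1, 2 or 3 (0.0644, 0.0606 and 0.0546). Pax6 kept its call in only 5 of 21 such fits, with adjusted p reaching 0.14 without 2i+LIF PO replicate 3. In bulk RNA, fewer cells of a type and less RNA per cell cannot be told apart.

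**Figure D1:**
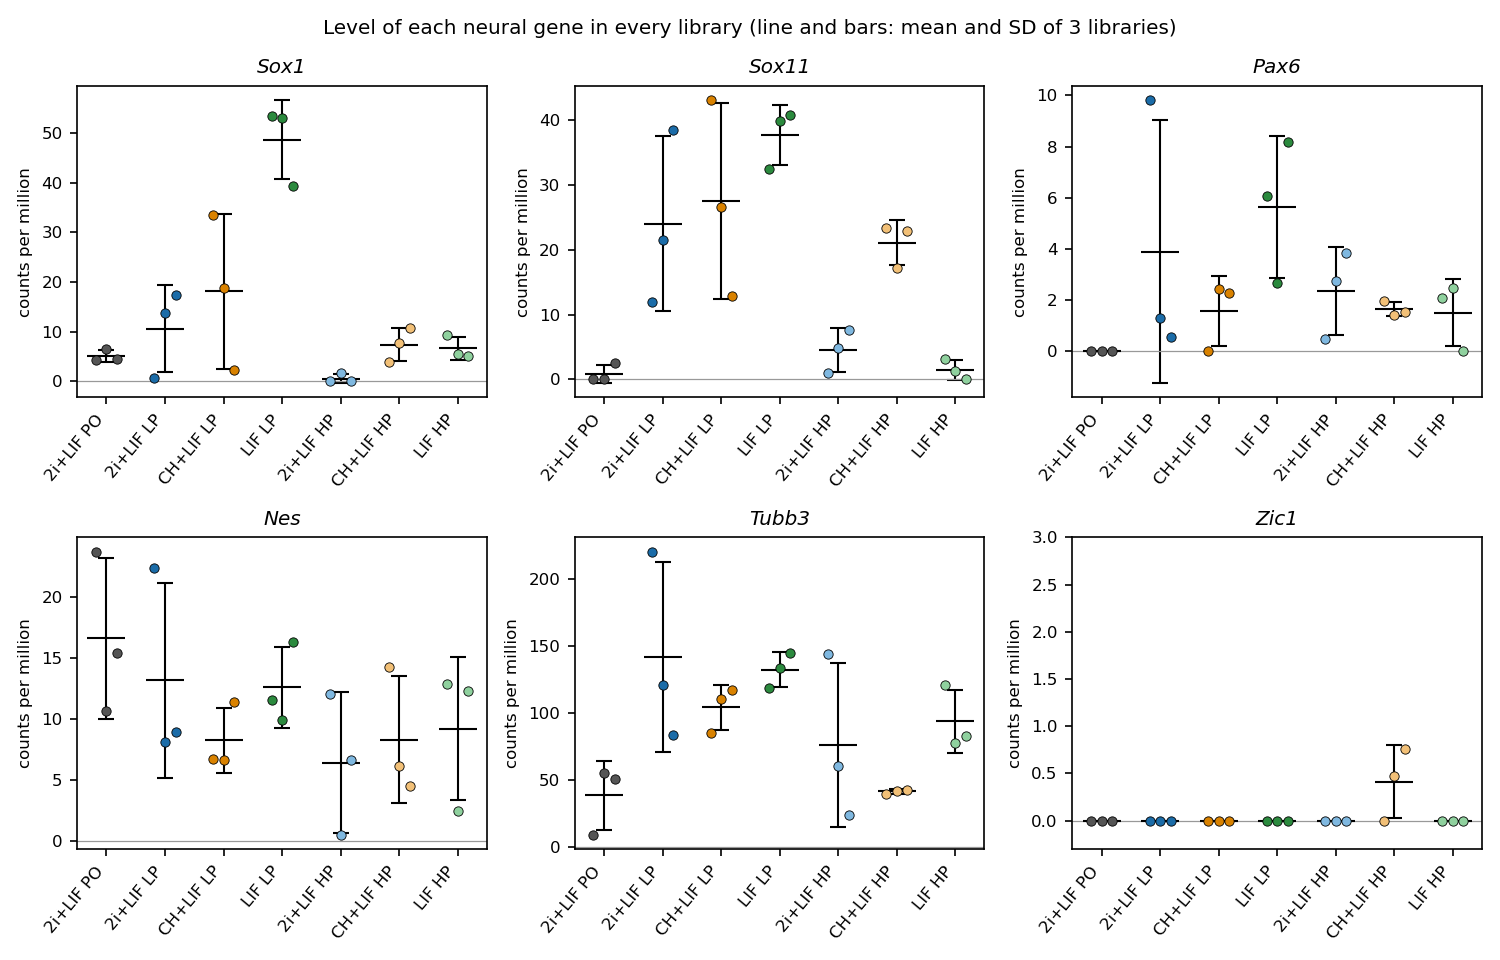
Level in CPM (vertical axis) of each of the 6 genes in every library of the 7 groups (horizontal axis). Points are libraries, and lines and bars are the mean and SD of 3 libraries. Sox1 and Sox11 are highest on average in LIF LP (48.7 and 37.7 CPM), Pax6 is at 0 in all 3 libraries of 2i+LIF PO, and Zic1 has 1 count in each of 2 libraries.

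Sox1 encodes a transcription factor of the SoxB1 group and is a marker of the early neural plate. The gene (ENSMUSG00000096014) lies on chromosome 8 from 12395295 to 12400126 of GRCm38 on the plus strand, where GENCODE also places Gm25239 and Sox1ot, which the count tables do not list. It had 53.4, 53.1 and 39.4 CPM in the 3 libraries of LIF LP. In CH+LIF LP it had 33.4, 18.8 and 2.28 CPM. In 2i+LIF LP it had 0.701, 13.8 and 17.3 CPM. Every LIF LP library thus lay above every library of the other 6 groups, while replicates of the other LP groups differed widely among themselves, the lowest 2i+LIF LP value being that of the library that stood apart. In the starting cells, 2i+LIF PO, Sox1 had 4.22, 6.54 and 4.49 CPM. At HP it had 9.28, 5.54 and 5.15 CPM in LIF and 3.89, 7.63 and 10.7 CPM in CH+LIF. In 2i+LIF HP it had 0, 1.64 and 0 CPM, 3 counts in all. The starting cells, CH+LIF HP and LIF HP overlapped, and all 3 libraries of 2i+LIF HP lay below them.

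Sox1 was higher in LIF LP than in the starting cells (edgeR log2 fold change 3.23, SE 0.72, adjusted p = 0.00446), in 3 of 3 libraries and in every alternative tried. The value of CH+LIF LP against the starting cells was 1.84 (SE 0.71, adjusted p = 0.106), and it passed without 2i+LIF LP replicate 1 (adjusted p = 0.035) or CH+LIF LP replicate 3 (2.33, adjusted p = 0.0428). From LIF LP to LIF HP Sox1 fell by 2.82 on the log2 scale (SE 0.73, adjusted p = 0.0154), with no overlap of libraries. This call was lost without LIF LP replicate 1 or 2 (adjusted p of 0.0549 and 0.0531) or LIF HP replicate 2 or 3 (0.0757 and 0.0711). It also fell from 2i+LIF LP to 2i+LIF HP (log2 fold change -4.05, SE 1.02, adjusted p = 0.022). The pooled counts gave a ratio of 18.0 between these 2 groups, with a 95% counting interval of 5.88 to 89.4, and of 11.0 without 2i+LIF HP replicate 1 or at least 11.4 without replicate 2. The groups overlapped through 2i+LIF LP replicate 1, and without it and 2i+LIF PO replicate 1 the log2 fold change was -4.56 (adjusted p = 0.00111). Leaving out 2i+LIF LP replicate 2 or 3 (adjusted p of 0.0601 and 0.0629) or 2i+LIF HP replicate 1 or 3 (0.0836 and 0.0911) ended the call. In CH+LIF the difference of HP from LP was -1.33 (SE 0.72, adjusted p = 1).

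Against the 3 counts of 2i+LIF HP, pooled Sox1 counts were 85.3-fold higher in LIF LP (95% counting interval 28.9 to 417), 11.6-fold higher in CH+LIF HP (3.68 to 59.0), 9.15-fold higher in LIF HP (2.86 to 46.7) and 7.84-fold higher in 2i+LIF PO (2.53 to 39.3). All 3 counts lay in replicate 2. Without it the 4 ratios become bounds of at least 53.9-fold, 7.35-fold, 5.78-fold and 4.95-fold, set on 3 counts, and without 2i+LIF HP replicate 1 they were 52.2, 7.11, 5.59 and 4.79. The counting intervals leave out the spread between replicates. With that spread, neither CH+LIF HP (adjusted p = 0.098), LIF HP (adjusted p = 0.0736) nor 2i+LIF PO (adjusted p = 0.0684) differed from 2i+LIF HP by edgeR. All 3 passed once 2i+LIF LP replicate 1 was left out of the shared fit (adjusted p of 0.0271, 0.0243 and 0.0253), and likewise without CH+LIF LP replicate 3 (0.048, 0.0453 and 0.0406). The comparison with 2i+LIF PO also passed without 2i+LIF HP replicate 2, the only library of its group with a count (adjusted p = 0.0442). At LP, the difference of LIF from 2i+LIF was 2.16 (SE 0.69, adjusted p = 0.174) and that of LIF from CH+LIF was 1.39 (SE 0.67, adjusted p = 1), although the libraries did not overlap in either.

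Sox11 encodes a SoxC transcription factor found in neural progenitors and immature neurons. The gene (ENSMUSG00000063632) lies on chromosome 12 from 27334264 to 27342574 on the minus strand, with no overlapping gene in GENCODE. It had 32.5, 39.8 and 40.9 CPM in LIF LP, 43.1, 26.6 and 12.9 CPM in CH+LIF LP and 11.9, 21.5 and 38.6 CPM in 2i+LIF LP. The 3 media overlapped at LP. In 2i+LIF PO it had 0, 0 and 2.49 CPM, below every LP library. At HP it had 23.4, 17.2 and 22.8 CPM in CH+LIF. It had 0.93, 4.91 and 7.67 CPM in 2i+LIF HP and 3.09, 1.23 and 0 CPM in LIF HP. CH+LIF HP thus kept within the range of CH+LIF LP, while 2i+LIF HP and LIF HP lay below every LP library and overlapped the starting cells.

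Against 2i+LIF PO, Sox11 rose in 4 of 6 groups by edgeR: by a log2 fold change of 5.19 in LIF LP (SE 0.80, adjusted p = 0.000196), 4.75 in CH+LIF LP (SE 0.80, adjusted p = 0.000621), 4.54 in 2i+LIF LP (SE 0.80, adjusted p = 0.00199) and 4.35 in CH+LIF HP (SE 0.80, adjusted p = 0.00241). Its 10 counts in 2i+LIF PO all came from replicate 3. Without that library the starting cells were at 0, so no fold is given, and the 4 calls held, with adjusted p of 0.000164 to 0.00123. With only the groups compared in the fit, the call in 2i+LIF LP was lost (edgeR adjusted p = 0.235). The values of 2i+LIF HP (2.01, SE 0.89, adjusted p = 0.144) and LIF HP (0.75, SE 1.01, adjusted p = 0.665) did not pass. That of 2i+LIF HP passed without 2i+LIF PO replicate 3 (adjusted p = 0.0124).

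Sox11 fell by 4.44 on the log2 scale from LIF LP to LIF HP (SE 0.82, adjusted p = 0.00147), in every alternative tried. Between media at HP, LIF was lower than CH+LIF (log2 fold change -3.60, SE 0.83, adjusted p = 0.0232), with no overlap. That call was lost without CH+LIF HP replicate 1, 2 or 3 (adjusted p of 0.0766, 0.0551 and 0.0788) or LIF HP replicate 2 or 3 (0.144 and 0.115). From 2i+LIF LP to 2i+LIF HP the log2 fold change was -2.53 (SE 0.73, adjusted p = 0.0508), with no overlap of libraries. It passed in 13 of 30 alternatives, 6 of which left out 1 library. These were 2i+LIF LP replicate 1 (adjusted p = 0.0197), 2i+LIF PO replicates 1, 2 and 3 (0.0252, 0.0294 and 0.023), CH+LIF LP replicate 3 (0.0459) and LIF HP replicate 3 (0.0496). CH+LIF HP also lay above every 2i+LIF HP library (2.33, SE 0.74, adjusted p = 0.118), a difference that passed without both libraries that stood apart (adjusted p = 0.0217). From CH+LIF LP to CH+LIF HP it was -0.40 (SE 0.63, adjusted p = 1). The test of whether the change from LP to HP differed between LIF and CH+LIF gave -4.04 (SE 1.04, adjusted p = 0.088), which did not pass. Without 2i+LIF LP replicate 1, 2i+LIF PO replicate 1 or 2i+LIF PO replicate 3 it did (adjusted p of 0.0313, 0.0395 and 0.0465).

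**Figure D2:**
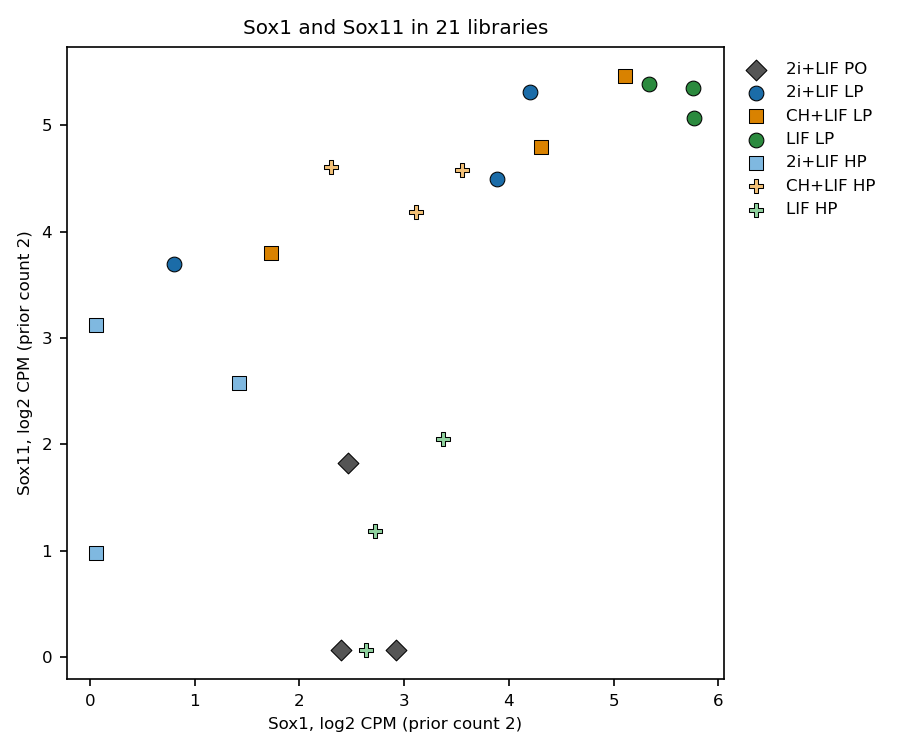
Sox1 (horizontal axis) against Sox11 (vertical axis) in each of 21 libraries, both as log2 CPM with a prior count of 2, coloured by group. LIF LP libraries are at the upper right, and LIF HP and 2i+LIF PO libraries keep some Sox1 with little Sox11.

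The plot of Sox1 against Sox11 shows where both genes parted. Over 21 libraries Pearson's r of log2 CPM was 0.563, and Sox11 ranked 614 among 9459 genes in likeness to Sox1, so the pair did not follow each other closely. LIF HP and CH+LIF HP had overlapping Sox1 levels (6.66 ± 2.28 and 7.40 ± 3.39 CPM, SD, n = 3 each), while their mean Sox11 levels were 1.44 ± 1.56 and 21.1 ± 3.43 CPM. Deviations from the group means correlated with r of 0.528, while those of Sox1 gave r of -0.569 with Nes and -0.563 with Pax6. These values are a description over libraries that differ in depth, with no test.

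Pax6 encodes a paired-box transcription factor of the forebrain, eye and spinal cord. It (ENSMUSG00000027168) lies on chromosome 2 from 105668900 to 105697364 on the plus strand, and Pax6os1, on the opposite strand with no shared exon, had no count in any library. Pax6 had 83 counts in all and no count in any 2i+LIF PO library, which allows up to 0.297 CPM over that group. It had 6.06, 2.66 and 8.18 CPM in LIF LP and 9.82, 1.29 and 0.559 CPM in 2i+LIF LP. In CH+LIF it had 0, 2.42 and 2.28 CPM at LP and 1.95, 1.43 and 1.52 CPM at HP. At HP it had 0.465, 2.73 and 3.83 CPM in 2i+LIF and 2.06, 2.46 and 0 CPM in LIF. Neighbouring groups in the order of mean levels all overlapped. The highest single value, 9.82 CPM, belonged to the 2i+LIF LP library that stood apart.

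Against the starting cells, pooled Pax6 counts were at least 22.9-fold higher in LIF LP (edgeR adjusted p = 0.00578), at least 11.0-fold higher in 2i+LIF LP (adjusted p = 0.0265) and at least 7.23-fold higher in 2i+LIF HP (adjusted p = 0.0402). These bounds set 3 counts for the group at 0. Of the 18 counts in 2i+LIF LP, 14 came from replicate 1, and without it the bound was 3.58-fold. Without 2i+LIF PO replicate 2, the deepest library of its group, the bounds were 14.3-fold in LIF LP, 6.86-fold in 2i+LIF LP and 4.53-fold in 2i+LIF HP. CH+LIF LP (at least 4.98-fold, adjusted p = 0.0814), CH+LIF HP (at least 5.61-fold, adjusted p = 0.0827) and LIF HP (at least 4.96-fold, adjusted p = 0.0544) did not pass, but all 3 did when 2i+LIF LP replicate 1 was left out of the shared fit (adjusted p of 0.0455, 0.044 and 0.0307). Without 2i+LIF PO replicate 2 these 3 bounds were 3.11-fold, 3.51-fold and 3.11-fold. That of CH+LIF LP was 8.15-fold without its replicate 1, and without its replicate 2 only 3 counts were left and no bound is given. LIF HP also passed without 2i+LIF LP replicate 3 (0.0489) or CH+LIF LP replicate 1 (0.0457). The LIF LP call held in all 28 alternatives that gave a value, while that of 2i+LIF LP was lost without 2i+LIF LP replicate 1 (adjusted p = 0.15) and without 2i+LIF PO replicate 2 or 3 (0.104 and 0.1). The 2i+LIF HP call was lost without 2i+LIF HP replicate 2 or 3 (adjusted p of 0.0963 and 0.153) and without 2i+LIF PO replicate 1, 2 or 3 (0.0578, 0.1 and 0.104).

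Zic1 encodes a zinc-finger transcription factor of the neural plate border and the cerebellum. It (ENSMUSG00000032368) lies on chromosome 9 from 91358058 to 91365810 on the minus strand, and its exons overlap those of Zic4 on the other strand. It had 2 counts in all, 1 in CH+LIF HP replicate 2 (0.477 CPM) and 1 in CH+LIF HP replicate 3 (0.762 CPM). In each of the other groups it was at 0, which allows up to 0.297 CPM over 2i+LIF PO and 0.542 to 0.643 CPM over the others. Zic4 had 2 counts, both in 2i+LIF HP, and whether reads were counted by strand is not given in the sources used here. Zic1 did not reach the filter on low counts, so it was not tested, and a difference was not detectable at this depth.

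Nes encodes nestin, an intermediate filament protein of neural progenitors. The gene (ENSMUSG00000004891) lies on chromosome 3 from 87971078 to 87980451 on the plus strand, with no overlapping gene in GENCODE. Unlike the Sox genes it was detected in all 21 libraries. It had 23.7, 10.7 and 15.5 CPM in 2i+LIF PO. In 2i+LIF it had 22.4, 8.18 and 8.95 CPM at LP and 12.1, 0.545 and 6.71 CPM at HP. In CH+LIF it had 6.78, 6.66 and 11.4 CPM at LP and 14.3, 6.20 and 4.57 CPM at HP. In LIF it had 11.6, 9.96 and 16.4 CPM at LP and 12.9, 2.46 and 12.4 CPM at HP. Neighbouring groups in the order of means all overlapped, and the highest values in 2i+LIF PO and 2i+LIF LP came from the 2 libraries that stood apart. The largest difference in size was that of 2i+LIF HP from 2i+LIF PO, a log2 fold change of -1.33 (SE 0.67, edgeR adjusted p = 0.209). No comparison of Nes passed, and with standard errors of 0.64 to 0.71 for single pairs of groups, changes of about this size could not be told from the spread between replicates.

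Tubb3 encodes class III beta-tubulin, a tubulin used as a marker of neurons. The gene (ENSMUSG00000062380) lies on chromosome 8 from 123411424 to 123422015 on the plus strand, and the overlapping Gm20388 had no count. With 3493 counts it was the most counted of the 6. It had 8.97, 55.2 and 50.9 CPM in 2i+LIF PO, the lowest value in the library rich in mitochondrial counts. At LP it had 220.2, 121 and 83.3 CPM in 2i+LIF, 84.8, 110.2 and 117 CPM in CH+LIF and 118.4, 133.5 and 144.3 CPM in LIF. Every LP library lay above every PO library. At HP it had 143.6, 60.5 and 24.0 CPM in 2i+LIF, 39.6, 42.0 and 42.6 CPM in CH+LIF and 121, 77.6 and 82.4 CPM in LIF. CH+LIF HP lay below every library of LP and of LIF HP, and 2i+LIF HP spread over the range of most other groups.

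Tubb3 was higher than in 2i+LIF PO in 2i+LIF LP (edgeR log2 fold change 1.86, SE 0.52, adjusted p = 0.0356) and in LIF LP (1.76, SE 0.51, adjusted p = 0.0248). The value of CH+LIF LP was 1.42 (SE 0.51, adjusted p = 0.0844), which passed without 2i+LIF LP replicate 1 (adjusted p = 0.0469). Without both libraries that stood apart, the log2 fold change of 2i+LIF LP was 0.94 (adjusted p = 0.171) and that of LIF LP 1.32 (adjusted p = 0.0224). Leaving out 2i+LIF PO replicate 1, 2 or 3 (adjusted p of 0.0516, 0.0541 and 0.0627) or 2i+LIF LP replicate 1 (0.106) ended the call in 2i+LIF LP. For LIF LP it ended without 2i+LIF PO replicate 1 (0.064) or LIF LP replicate 2 or 3 (0.0695 and 0.0689). The lower level of CH+LIF HP against CH+LIF LP (log2 fold change -1.33, SE 0.52, adjusted p = 0.732) and against LIF HP (LIF HP minus CH+LIF HP, 1.18, SE 0.52, adjusted p = 0.284) did not pass. The latter passed with only the groups compared in the fit (1.15, adjusted p = 0.00863) and with limma-voom (1.11, adjusted p = 0.0177).

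Across comparisons, most calls were against the starting cells, and all calls of HP against LP were falls. Each count of calls is set beside the share of all tested genes that passed in the same comparison. Comparisons that share a group share its libraries, so they are not independent of each other. Between media at LP, 0 of the 5 genes tested passed for CH+LIF against 2i+LIF (0% of all genes), for LIF against 2i+LIF (0.489%) and for LIF against CH+LIF (0.047%). For CH+LIF against 2i+LIF at LP, where edgeR called 0 genes, 950 of all genes had an unadjusted p under 0.05, of which 0 were among these 5, while DESeq2 called 25 genes and limma-voom 2. In LIF LP against each of the other media 1 of the 5, Sox1, had an unadjusted p under 0.05, and both DESeq2 and limma-voom called 0 of the 5 between media at LP. At HP, 0 passed for CH+LIF against 2i+LIF (2.02%), 0 for LIF against 2i+LIF (3.78%) and 1, Sox11, for LIF against CH+LIF (1.47%). In those first 2 comparisons, 2 of the 5 (Sox1 and Sox11) and 1 of the 5 (Sox1) had an unadjusted p under 0.05, while DESeq2 called 4 and limma-voom 2 over the 3 comparisons at HP. From LP to HP, 1 of the 5 fell in 2i+LIF (3.67%), 0 passed in CH+LIF (0.0094%) and 2, Sox1 and Sox11, fell in LIF (9.96%). In CH+LIF, 1 of the 5, Tubb3, had an unadjusted p under 0.05, and it passed with limma-voom (adjusted p = 0.0382).

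Against 2i+LIF PO, 4 of the 5 were higher in LIF LP (12% of all genes passed), 3 in 2i+LIF LP (5.06%) and 1 in CH+LIF LP (8.31%). Pax6, among those of LIF LP and 2i+LIF LP, met the count filter through these groups, so its calls are not set against those shares. At HP, 1 was higher in 2i+LIF (10.6%), 1 in CH+LIF (5.82%) and 0 in LIF (12.3%), where 2, Pax6 and Tubb3, had an unadjusted p under 0.05. In LIF HP DESeq2 called Pax6 (adjusted p = 0.0248) and limma-voom called Pax6 and Tubb3 (0.0479 and 0.0427). The single calls in CH+LIF LP, 2i+LIF HP and CH+LIF HP, 1 of 5 genes each, are too few to be set against those shares. The median log2 fold change of the 5 was 3.23 in LIF LP and 0.75 in LIF HP, beside -0.08 and -0.10 over all genes tested. The change from LP to HP did not pass as differing between media for any of the 5. All tested genes passed at 0.0188% for CH+LIF against 2i+LIF, 0.15% for LIF against 2i+LIF and 0.423% for LIF against CH+LIF. Over those 3 tests, 3 values had an unadjusted p under 0.05 (Sox1 and Sox11 for CH+LIF against 2i+LIF, Sox11 for LIF against CH+LIF), and DESeq2 and limma-voom each called 1.

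Some embryonic stem cell markers were lower than in the same starting cells. Of 10 such markers, 5 were lower in LIF LP (12% of all genes passed in either direction), 5 in CH+LIF LP (8.31%) and 3 in 2i+LIF LP (5.06%). At HP 6 were lower in 2i+LIF (10.6%) and 1 in CH+LIF (5.82%), with 0 higher in any of these groups, and 2 were lower and 1 higher in LIF HP (12.3%). Nanog, a factor of naive pluripotency, had 308, 579 and 460.2 CPM in 2i+LIF PO and 249.5, 141.4 and 206 CPM in LIF LP (edgeR log2 fold change -1.17, SE 0.37, adjusted p = 0.0388). Zfp42, the gene of the reporter allele, had 217, 343 and 135 CPM in 2i+LIF PO and 109.6, 91.6 and 116 CPM in LIF LP (-1.13, SE 0.35, adjusted p = 0.0362). Neither gene overlapped between those groups. Other markers lay higher in LIF LP without passing. Sox2 had 700 to 789 CPM there and 427 to 623 CPM in 2i+LIF PO, and Tdgf1 averaged 507 and 375 CPM. The counts rested on few libraries: with 1 left out they reached down to 1 in LIF LP (without LIF LP replicate 2 or 2i+LIF PO replicate 2), 1 in CH+LIF LP and 1 in 2i+LIF LP (both without 2i+LIF PO replicate 2) and 3 in 2i+LIF HP (without 2i+LIF HP replicate 3). Without both libraries that stood apart, 6, 5, 5 and 6 passed in LIF LP, CH+LIF LP, 2i+LIF LP and 2i+LIF HP. The part of this change in the levels of the neural genes was not tested.

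**Figure D3:**
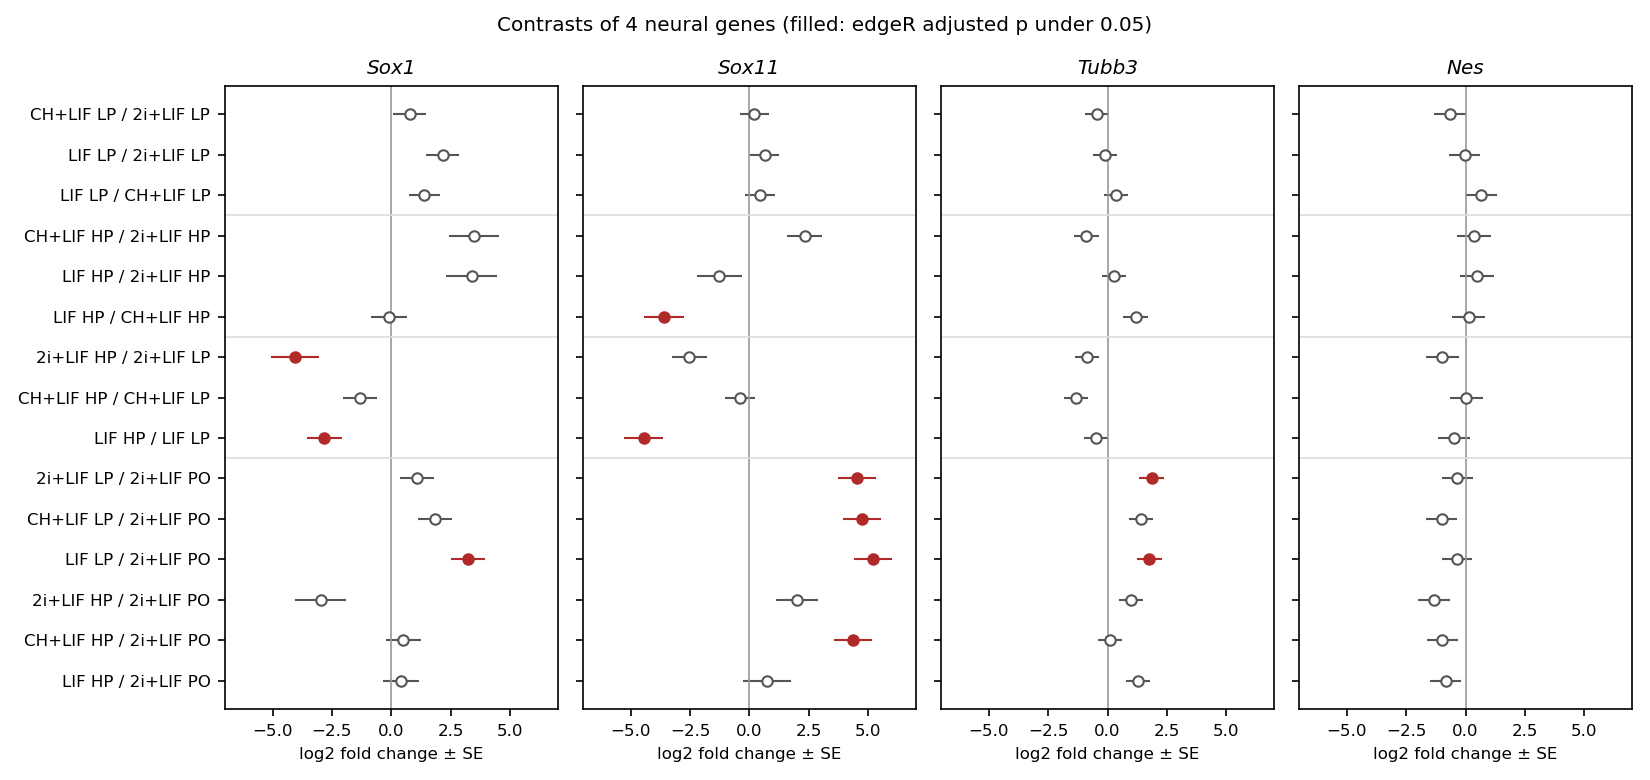
Log2 fold change with its standard error (horizontal axis) for Sox1, Sox11, Tubb3 and Nes in 15 comparisons of pairs of groups (vertical axis, first group over second). Filled points have an edgeR adjusted p under 0.05. Pax6 is left out because its reference group is at 0. The filled points of Sox11 lie between 4.35 and 5.19 against 2i+LIF PO and at -3.60 and -4.44 for LIF HP, and Nes has none.

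Calls among relatives of these genes differed by family. In the SoxB1 and SoxC group, Sox1 and Sox11 passed the joint test and Sox2, Sox4 and Sox12 did not (edgeR adjusted p of 0.0752, 0.127 and 0.139), and Sox3 was too low to be tested. Sox2, which holds pluripotency as well as neural progenitor identity, ranged from a mean of 408 ± 30.5 CPM in LIF HP to 870 ± 472 CPM in 2i+LIF LP (SD, n = 3 each). Among Zic genes, Zic2 (adjusted p = 0.0399) passed, Zic5 did not (adjusted p = 0.0978), and Zic1 and Zic4 were not tested. Of 9 Pax genes only Pax6 was counted often enough to be tested. Among 6 tested beta-tubulins Tubb6 (adjusted p = 0.0228) and Tubb3 passed. Tubb6 did not share the direction of Tubb3: it was lower in LIF LP than in 2i+LIF PO (log2 fold change -1.56, SE 0.44, adjusted p = 0.021). For the repressor of neuronal genes REST and its partners, the joint test by edgeR gave adjusted p of 0.18 for Kdm1a, 0.212 for Rest, 0.253 for Rcor2 and 0.715 for Rcor1.

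A wider list of 36 other neural progenitor genes had 34 with a count and 13 that could be tested. Alternatives were followed for the counts of called genes in this and the next list, not for their single genes. In the joint test 6 of 13 passed, beside 22.6% of all tested genes, with Vim, Pou3f1, Otx2, Gbx2 and Zic2 among them. That count was 12 without both libraries that stood apart, 10 without 2i+LIF LP replicate 3 and at most 9 without any other library. From LIF LP to LIF HP 3 of 13 fell and 0 rose, where 9.96% of all genes passed in either direction, with a list median log2 fold change of -0.90 beside 0.01 over all genes tested. Among these were Otx2, a factor of the epiblast and forebrain (-3.06, SE 0.82, adjusted p = 0.0195) and Pou3f1, a POU factor of the epiblast and neural progenitors (adjusted p = 0.015), which had 8.26, 3.98 and 4.81 CPM in LIF LP and no count in LIF HP. The count of 3 was 1 without LIF LP replicate 1 or LIF HP replicate 1 or 3, 5 when 2i+LIF PO replicate 1 was omitted, 6 when 2i+LIF LP replicate 1 was and 7 when both were. It was 2 without LIF HP replicate 2. Pou3f1 had 31 counts in LIF LP and 28 in CH+LIF LP but at most 8 in any other group. It thus met the count filter through groups where it was high, so its calls are not set against the shares of all genes. For CH+LIF against 2i+LIF at HP, Otx2 (3.27, SE 0.76, adjusted p = 0.0166) was higher and Gbx2, a factor of the hindbrain border and of naive pluripotent cells, was lower (-2.72, SE 0.71, adjusted p = 0.0403). Between LIF and CH+LIF at HP, Otx2 was lower in LIF (-3.86, SE 0.81, adjusted p = 0.0141), the comparison in which Sox11 passed. Vim, which encodes the filament protein vimentin, was higher than in 2i+LIF PO in all 6 groups, with log2 fold changes of 1.71 in LIF HP to 3.39 in CH+LIF LP. Against 2i+LIF PO, 2 of 13 were higher and 3 lower in 2i+LIF HP (10.6% of all genes passed). In LIF HP 1 was higher and 2 lower (12.3%), and in LIF LP 4 were higher and 0 lower (12%). Several genes of later progenitors were not detected: Hes3 and Fabp7 had no count in any group, and Olig2 had none in 6 of 7 groups.

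Of 25 neuronal genes, 20 had a count and 11 could be tested. Nefm, Nefl, Gap43, Mapt and Ina passed the joint test, 5 of 11 beside 22.6% of all tested genes, and they did not share one order of groups. Neurofilament genes Nefm and Nefl were lower in LIF LP than in 2i+LIF LP (log2 fold change -5.49, SE 0.54, adjusted p = 7.89e-07 and -3.59, SE 0.46, adjusted p = 9.43e-05), the group in which Sox1 and Sox11 were highest on average. Gap43, a protein of growing axons, had 7.71, 13.9 and 15.9 CPM in LIF LP and 0, 0.523 and 0 CPM in 2i+LIF PO (adjusted p = 0.00111). From LIF LP to LIF HP 3 of 11 passed (9.96% of all genes), 2 of them higher: Nefm (3.21, SE 0.53, adjusted p = 0.000433) and Nefl (2.09, SE 0.44, adjusted p = 0.00374) rose. Ina, which encodes the filament protein internexin, fell by 2.25 on the log2 scale (SE 0.65, adjusted p = 0.0289). The median log2 fold change of the 11 was -0.99 beside 0.01 over all genes tested, so the 2 rises went against the sign of the list's median. Leaving out any 1 library gave 2 or 3 calls there, and omitting both libraries that stood apart gave 4. Mapt, which encodes tau, fell from 2i+LIF PO to 2i+LIF HP (-2.58, SE 0.56, adjusted p = 0.00402). Of the factors that commit cells to neurons, Neurog1 and Neurod4 had no count in any of 21 libraries, nor had the neuronal genes Dcx and Stmn4. The joint count was 9 without both libraries that stood apart.

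**Figure D4:**
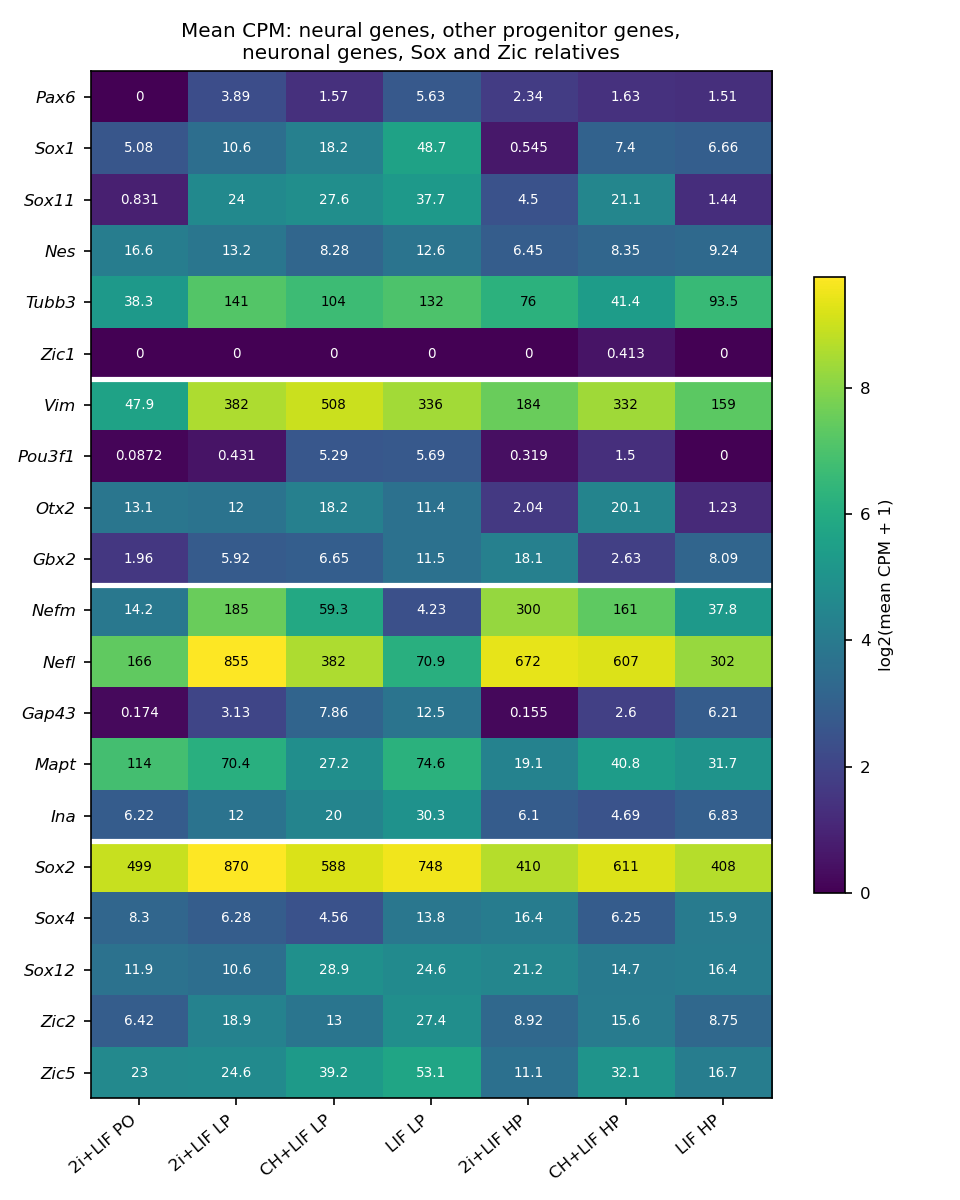
Mean CPM of 3 libraries, printed in each cell and coloured by log2(mean CPM + 1), for the 6 genes (top), 9 other neural progenitor and neuronal genes that passed the joint test, and further Sox and Zic relatives (rows) in 7 groups (columns). Otx2 is low in 2i+LIF HP and LIF HP, whereas Nefm is at 4.23 CPM in LIF LP but 300.2 CPM in 2i+LIF HP.

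Genes whose pattern over the 21 libraries was most like that of each gene were taken by Pearson's r of log2 CPM among 9459 genes with a mean of at least 5 CPM, as a description. For Sox1 they were Lefty1, which encodes an inhibitor of Nodal (r = 0.918), Itga9 (r = 0.9) and Pmaip1 (r = 0.897). Lefty1 averaged 305 ± 93.4 CPM in LIF LP, 48.6 ± 10.7 CPM in LIF HP but 6.63 ± 3.72 CPM in 2i+LIF HP (SD, n = 3 each), the same highest and lowest groups as Sox1. For Sox11 they were Tgm3 (r = 0.924), the zinc transporter gene Slc39a14 (r = 0.915) and the glypican gene Gpc3 (r = 0.907). Tgm3 averaged 50.8 ± 4.46 CPM in LIF LP, 47.0 ± 7.20 CPM in CH+LIF HP, 4.08 ± 5.43 CPM in 2i+LIF HP but 1.27 ± 0.26 CPM in LIF HP. Those of Tubb3 were Ube2l3 (r = 0.844), Rrp36 (r = 0.794) and Fam110a (r = 0.777), and those of Nes were Prkce (r = 0.828), Ncam1 (r = 0.778) and Clspn (r = 0.777). None of the 3 closest genes of one neural gene was among those of another. Pax6 and Zic1 were below the minimum level for this measure.

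Markers of other cell types were followed in all groups as the summed CPM of 8 genes each, from the lowest to the highest library, with media in the order 2i+LIF, CH+LIF and LIF. Some sums rested on few genes that had counts in every group, so a high sum need not mean such cells. In 2i+LIF PO Fn1 averaged 321 CPM of the fibroblast sum, beside 10.7 CPM for Col1a1 and 4.72 CPM for Thy1. Of the neural crest sum, Ngfr and Foxd3 averaged 65.7 and 33.7 CPM there. The glial sum ran from 29.3 to 89.7 in 2i+LIF PO. It ran from 13.8 to 61.0, 16.3 to 22.0 and 8.81 to 14.4 at LP and from 39.3 to 67.9, 11.0 to 25.3 and 24.7 to 38.6 at HP. Between 4 and 7 of its genes had a count in a group, and Aqp4, an astrocyte channel, had none in any. The neural crest sum ran from 77.6 to 135 in PO, from 37.9 to 109.8, 58.1 to 87.7 and 65.7 to 105 at LP and from 88.2 to 112, 60.2 to 88.3 and 84.5 to 102 at HP. Between 4 and 7 of its genes had a count, and Sox10, which defines the crest, had none in any group. The fibroblast sum ran from 248 to 401 in PO, from 239.8 to 329.9, 153.4 to 428 and 202 to 289 at LP and from 166 to 255, 212 to 311 and 164 to 177 at HP. Between 3 and 6 of its genes had a count, and Dcn had one only in PO.

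Markers of early lineages were followed in the same way. The mesoderm sum ran from 7.39 to 14.5 in PO, from 3.35 to 9.12, 0.759 to 1.82 and 2.66 to 5.51 at LP and from 22.0 to 42.0, 3.05 to 9.73 and 7.21 to 16.0 at HP, with 1 to 6 genes counted in a group. The primitive endoderm sum ran from 3.14 to 6.48 in PO, from 4.74 to 8.39, 1.52 to 4.84 and 0.962 to 4.96 at LP and from 4.18 to 24.5, 0.649 to 4.29 and 3.70 to 5.15 at HP, with 4 to 6 genes counted. The trophoblast sum ran from 91.8 to 133 in PO, from 61.5 to 91.2, 34.9 to 88.8 and 37.2 to 73.8 at LP and from 82.4 to 112, 35.8 to 46.7 and 131 to 173 at HP, with 3 to 6 genes counted and Elf5 at 0 in every group. From 2i+LIF LP to 2i+LIF HP, where Sox1 fell, 3 of the 6 tested markers of these lineages rose (3.67% of all genes passed). These, T, Cdx2 and Krt7, had 114, 71 and 102 counts in 2i+LIF HP and 7, 3 and 4 in 2i+LIF LP. They met the count filter mostly through the group where they were high, so this count is not set against that share. The other tested markers did not pass: Eomes averaged 18.6 CPM at LP and 5.95 CPM at HP, Tfap2c 53.9 and 51.6 CPM and Kdr 0.947 and 2.12 CPM. T, which marks early mesoderm, had 0, 3.01 and 0 CPM at LP and 13.5, 36.5 and 17.3 CPM at HP (edgeR adjusted p = 0.0235). The trophoblast gene Cdx2 had 0, 1.29 and 0 CPM at LP and 21.4, 9.81 and 6.71 CPM at HP (adjusted p = 0.0333), and the keratin gene Krt7 rose as well (adjusted p = 0.022). From LIF LP to LIF HP 1 trophoblast and 1 glial marker rose (9.96% of all genes passed). In LIF LP against 2i+LIF PO 1 trophoblast, 1 neural crest and 1 glial marker were lower (12%). Only 2 mesoderm, 4 trophoblast, 3 neural crest, 3 fibroblast and 2 glial markers had counts enough for these tests, and their calls were not followed through the alternatives. The part of these cell types in the levels of the neural genes was not tested.

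**Figure D5:**
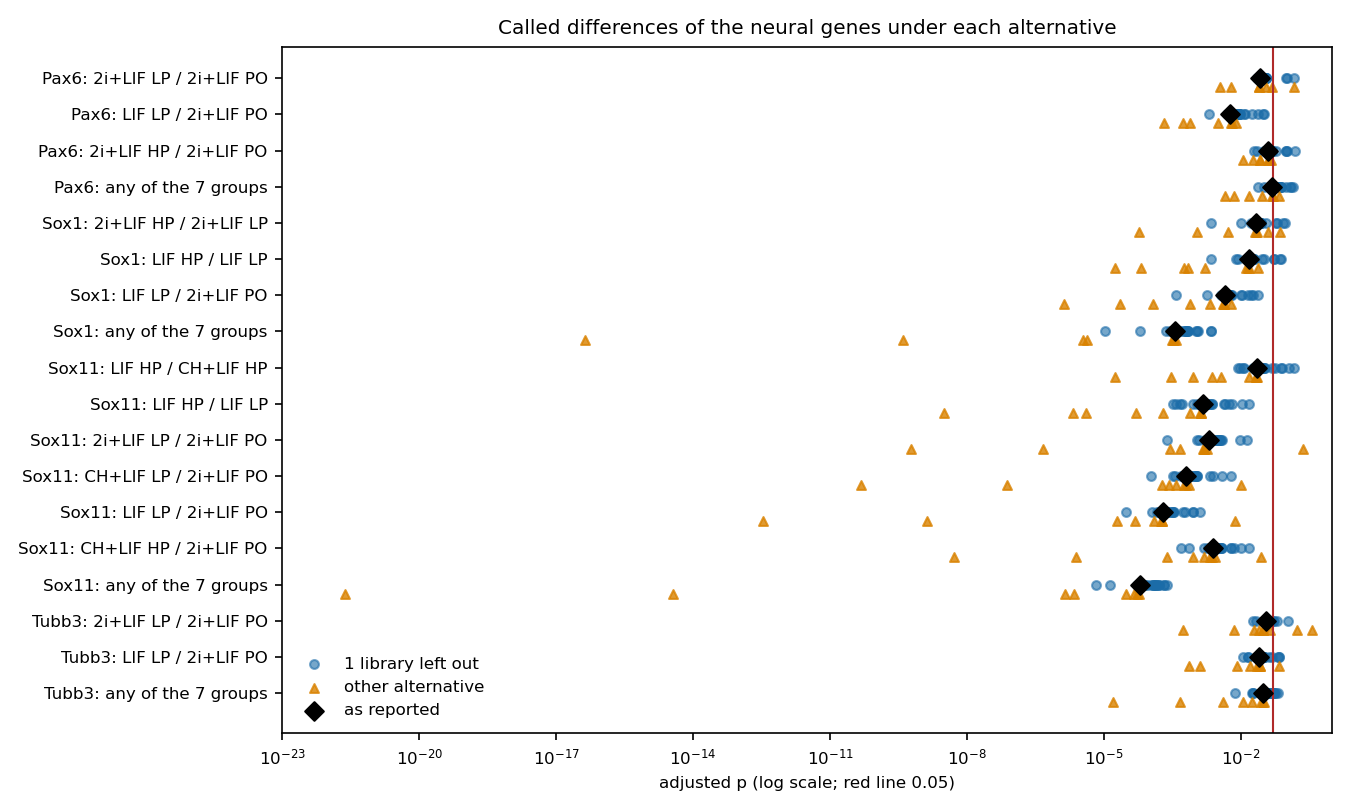
Adjusted p on a log scale (horizontal axis) of each of 18 called results for these genes (vertical axis), as reported (diamond), with 1 library left out (circles) and under other alternatives (triangles). The red line is the threshold of 0.05. In the joint row of Sox11 the 2 leftmost triangles are the fit with no filter on low counts and DESeq2, and the joint result of Pax6 has most circles to the right of the line.

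The plot of adjusted p by alternative sorts these calls by their firmness. Of the 18 calls, 14 between pairs of groups and 4 joint, 8 were kept in every alternative that gave a value (Pax6 had too few counts to be tested in thinned libraries or in fits of only the groups compared). Those 8 were the joint calls of Sox1 and Sox11, LIF LP against 2i+LIF PO for Sox1, Sox11 and Pax6, the fall of Sox11 from LIF LP to LIF HP, and the rise of Sox11 over 2i+LIF PO in CH+LIF LP and CH+LIF HP. No call changed direction in any alternative.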

How the data were processed

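Messenger RNA of 21 libraries, 7 groups of 3, was sequenced from 125 ng of total RNA each, per the labels' protocols. The authors deposited 1 table of raw counts per library, not normalized, with 31053 Ensembl gene IDs and 5 last entries that are not genes. The submitters' processing notes name bcl2fastq, STAR 2.6.0a, HTSeq and the build mm10; annotation, strand setting and filters are not given in the sources used here. Those 5 entries were left out throughout: 8.46 to 25.8% of all entries lay in no feature, 0.179 to 0.683% were ambiguous and 20.8 to 35.4% were not unique. Symbols and positions came from GENCODE M21 (GRCm38), which held 31011 of the IDs, and 42 had no symbol. Gene counts per library ran from 1132126 to 3783043. All pairs of replicates differed by more than sampling noise (lowest chi-square per degree of freedom 4.82), so each library was counted as 1 sample.

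Tests used edgeR 4.0.16 in R 4.3.3: 1 quasi-likelihood fit of all 21 libraries with a coefficient per group, TMM scaling, filterByExpr (10643 genes kept) and 14 residual degrees of freedom. Tests were two-sided, p-values were adjusted by Benjamini-Hochberg over all genes within each comparison, and the threshold was 0.05. There were 15 comparisons of pairs of groups, 3 tests of whether the change from LP to HP differed between media, and 1 joint test. The standard error of a log2 fold change is its size divided by the square root of F. Log2 CPM used a prior count of 2. Fold bounds and counting ratios used counts and totals pooled over a group, without TMM. The steps were tested on simulated counts.

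The 6 genes, the gene lists and the tests were chosen with earlier results of these data known. Values are given for all 6 genes, for at most 5 genes of a list (those with the lowest joint p) and for the 3 genes most like each gene with a mean of at least 5 CPM. List genes named for having no counts, and Dusp6 and Axin2, were chosen after their values were seen. Some genes of these lists are counted but not reported here by name. Alternatives tried were a fit of only the groups compared, a replicate block, no filter, DESeq2 1.42.0 and its size factors, counts thinned to 1132126 and each library left out. A further 3 were chosen after seeing the data: limma-voom (limma 3.58.1) with sample quality weights, a fit without both libraries that stood apart, and one without Gm42418 and mitochondrial genes. Same-numbered libraries deviated together (r over 0.1 in all 3 pairs) only for 2i+LIF LP against 2i+LIF PO, with r of 0.397, 0.345 and 0.179, although the labels do not say that a number marks a shared passage. There the block changed no call of these genes.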

Additional observations from a re-analysis of the deposited data

How the results depend on the processing

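Counts of calls over the 5 tested genes moved with the processing, while none of the 18 calls changed direction: 471 of 528 alternative values kept their call and 57 lost it. Of 19 uncalled results with an unadjusted p under 0.05, 16 passed in at least 1 alternative. Between media at LP the count was 0 of 15 and became 1 with no filter. At HP it was 1 of 15 and became 4 with DESeq2, with no filter and without both libraries that stood apart, 3 with only the groups compared and 2 with limma-voom. From LP to HP it was 3 and became 5 with limma-voom. Against 2i+LIF PO it was 10 of 30, became 15 with no filter and with limma-voom, 14 with DESeq2 and 7 in thinned libraries, and became 4 with only the groups compared, where the 3 Pax6 results gave no value and Sox11 in 2i+LIF LP had an adjusted p of 0.235. For differences between media in the change from LP to HP it was 0 and became 1 with DESeq2, no filter, limma-voom and without both libraries that stood apart. Leaving out each library in turn gave 0 to 0 at LP, 0 to 3 at HP, 2 to 4 from LP to HP, 7 to 14 against 2i+LIF PO, 0 to 1 for differences between media and 2 to 4 in the joint test. With the replicate number as a block, which the labels do not tie to a shared passage, these counts were 0, 1, 4, 10, 0 and 3: Sox11 from 2i+LIF LP to 2i+LIF HP passed (adjusted p = 0.0479) and the joint call of Pax6 was lost (0.0674). Sox1 from 2i+LIF LP to 2i+LIF HP was lost with limma-voom (0.0718), and the joint call of Pax6 also without mitochondrial genes and Gm42418 (0.0519). With only the groups compared, Tubb3 against 2i+LIF PO was lost in 2i+LIF LP (0.364) and LIF LP (0.0682). The cause of these changes was not tested, except that Pax6 had too few counts to be tested in thinned libraries or with only the groups compared. Stem cell markers called in 2i+LIF LP against 2i+LIF PO numbered 3, and 0 with only the groups compared. Neural progenitor genes passing the joint test numbered 6, and 3 to 12 under alternatives, and neuronal genes 5, and 5 to 10. All tested genes passing it numbered 2406, and 1717 to 5427 under alternatives. Depth limits Pax6 and Zic1 most, with 83 and 2 counts in 21 libraries.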
